A study of Mus musculus with 8 samples.

Results

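The BCL2 family decides whether a cell keeps the outer membrane of its mitochondria intact. Here 10 of its genes were compared between regulatory T cells (Treg) of the bone marrow (BM) and of the spleen (SP). The genes were taken by symbol from a fixed list, and each of the 10 was found among the 38215 genes of the deposited tables. They are the anti-apoptotic genes Bcl2, Bcl2l1 (BCL-XL), Mcl1 and Bcl2a1b (A1), the BH3-only genes Bcl2l11 (BIM), Bbc3 (PUMA), Pmaip1 (NOXA) and Bid, and the effectors Bax and Bak1. RNA had been sequenced from FoxP3+ cells sorted from naive mice of the line B6.FoxP3-GFP, at an age of 12 weeks. There were 4 libraries from BM (BM-Treg) and 4 from SP (SP-Treg). In these reporter mice, cells that express FoxP3 carry a green fluorescent protein by which they are sorted; the labels give the genotype of both groups as C57Bl/6, and no group carried a deletion or received a treatment. BM-Treg replicates 1 to 3 are labelled batch 1 and female, whereas all SP-Treg libraries and BM-Treg replicate 4 are labelled batch 3 and male. Between these 2 batches, batch and sex cannot be told apart, and batch 3 alone holds 1 BM-Treg library, so that values within it carry no test. The sources give the libraries as biological replicates but not the number of mice behind each, and p-values measure the spread between these libraries.

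Anti-apoptotic proteins of the family bind and hold their pro-apoptotic relatives. BH3-only proteins are the stress sensors: they occupy the anti-apoptotic proteins or engage the effectors directly. When BAX and BAK are freed, they form pores in the mitochondrial outer membrane, cytochrome c leaves, and the apoptosome activates caspases. In Treg, MCL1 is known as the anti-apoptotic protein that survival depends on, and BIM as the BH3-only protein that removes Treg deprived of IL-2.

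Bcl2 and Bcl2a1b were lower in BM-Treg, and the other 8 genes did not pass the test. The difference in Bcl2 was about 2-fold, and that in Bcl2a1b was larger. Mcl1 was by far the most abundant of the 10 in both tissues, and Bid, a BH3-only gene, came closest to passing among the others. To show the sequence around the start of the genes that differed, the bases upstream of Bcl2, of Bcl2a1b and of its neighbouring copy Bcl2a1d are given here as RefSeq lists them on GRCm38.p6. They are written 5′ to 3′ on the strand of the gene and without bases that lie in an annotated exon. Capitals mark GC boxes (GGGCGG on either strand), the kind of site that SP1 binds.
Bcl2, chr1:106714291-106714540, minus strand: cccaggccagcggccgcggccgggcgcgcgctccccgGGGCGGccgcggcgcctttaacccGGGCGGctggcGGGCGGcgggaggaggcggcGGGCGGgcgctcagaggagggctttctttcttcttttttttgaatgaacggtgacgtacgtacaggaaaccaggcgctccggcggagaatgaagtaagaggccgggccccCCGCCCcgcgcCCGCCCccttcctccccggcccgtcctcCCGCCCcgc
Bcl2a1b, chr9:89199023-89199208, plus strand: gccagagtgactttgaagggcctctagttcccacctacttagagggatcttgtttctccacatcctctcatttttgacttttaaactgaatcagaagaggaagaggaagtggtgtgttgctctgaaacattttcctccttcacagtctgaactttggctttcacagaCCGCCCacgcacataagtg
Bcl2a1d, chr9:88731915-88731997, minus strand: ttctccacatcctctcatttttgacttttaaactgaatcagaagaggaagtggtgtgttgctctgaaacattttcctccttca

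The region before Bcl2 was rich in G and C and held 7 GC boxes in 250 bases, whereas that before Bcl2a1b held 1 in 186 bases. The 83 bases before Bcl2a1d were found again before Bcl2a1b, with a single run of 6 bases inserted there. In windows from 250 bases before to 50 bases after the RefSeq start, 9 of the 10 genes had 14 windows, and Bcl2a1d added 1. A GC box was found in 11 of these 15 windows and in 35.6% of the 32817 windows of all genes. The 11 were windows of Bax, Bbc3, Bcl2, Bcl2a1b, Bcl2a1d, Bcl2l11, Bid and Mcl1. In Bcl2a1d the box lay in the window but outside the 83 bases printed, from which exon bases had been left out. Of the other motifs, all searched on both strands, the FOXO motif GTAAACA was found in windows of Bbc3 and Bcl2l11 (3.65% of all windows), and the MYC E-box CACGTG in windows of Bax and Bbc3 (7.15% of all windows). The letters of the STAT motif TTCNNNGAA (8.29% of all windows), the AP-1 motif TGACTCA (5.20%) and the CRE TGACGTCA (1.79%) were in 0 of the 15 windows. These matches describe letters in a window and no binding.

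Expected counts, which are estimates of the reads of a gene and can be fractions, summed to between 12427136 and 21921252 per library. The share on the mitochondrial chromosome was between 24.5% and 28.7% in BM-Treg and between 19.2% and 32.9% in SP-Treg. Libraries of a tissue differed from each other well beyond sampling noise, with a chi-square per degree of freedom of 14.2 to 92.4, so that none was counted as a repeat. The sorted cells carried the RNA of Treg: all 9 Treg markers were expressed in every library, their summed level was 7677 to 9137 CPM (counts scaled to a common library size with TMM) in BM-Treg and 8462 to 9228 CPM in SP-Treg, and 0 of the 9 differed by the test used for all genes. Of all genes, 13397 passed the expression filter of that test. Expression differed in 8.75% of them (1172 genes, edgeR's quasi-likelihood test, adjusted p under 0.05), with 3.72% higher (499 genes) and 5.02% lower (673 genes) in BM-Treg. On log2(FPKM + 1) with limma-trend, 482 were higher and 283 lower. In 16.2% of the genes the libraries of the tissues did not overlap. These are the backgrounds for the counts that follow.

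All 10 BCL2 family genes passed the filter. Of the 10, 2 were lower in BM-Treg, 0 were higher and 8 did not pass, and in 3 the libraries of the tissues did not overlap (Bcl2, Bcl2a1b and Bid). The median log2 fold change of BM-Treg against SP-Treg was 0.05 over the 10 genes and -0.01 over all genes tested. The median of its absolute size was 0.23 in both. In RNA from bulk cells, fewer cells expressing a gene and less of its RNA per cell cannot be told apart.

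**Figure D1:**
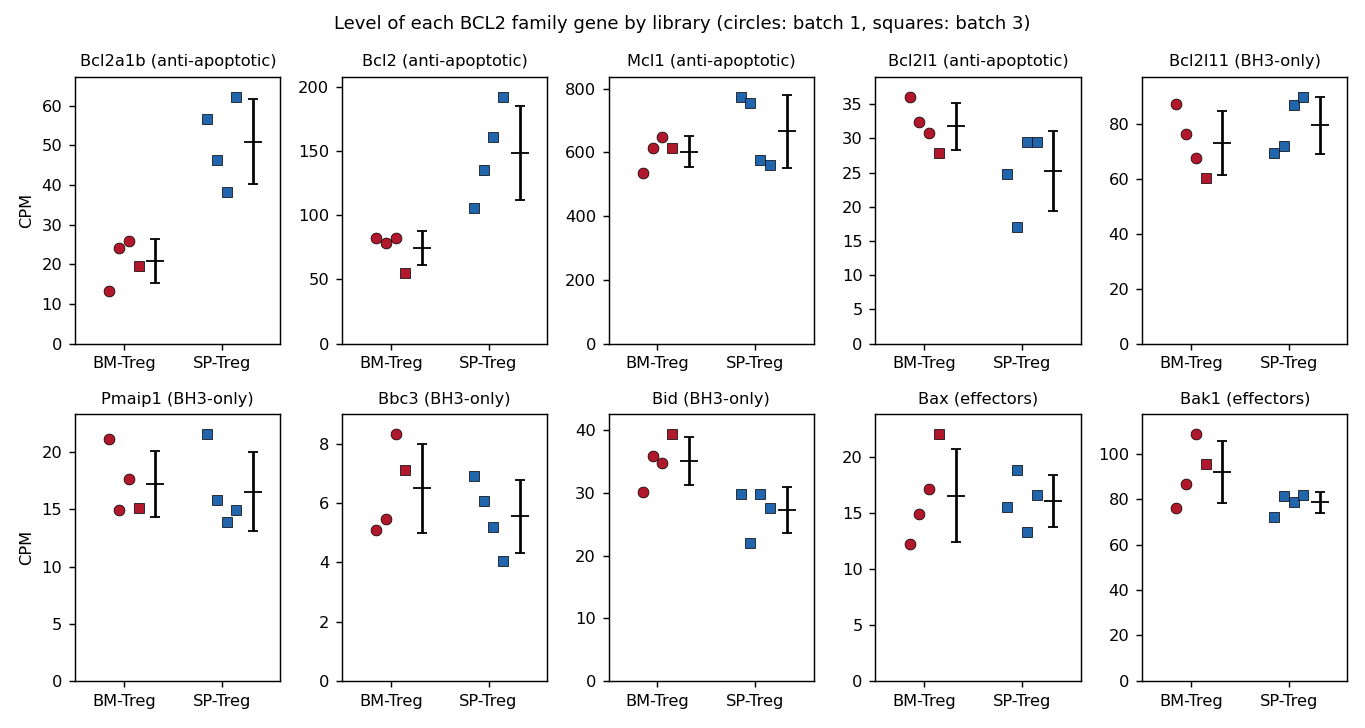
Level in CPM (vertical axis from 0) of each of the 10 genes in the 4 BM-Treg and 4 SP-Treg libraries; circles are batch 1, squares are batch 3, and bars give the mean and SD over 4 libraries. In Bcl2a1b the highest BM-Treg library is at 25.9 CPM and the lowest SP-Treg library at 38.2 CPM, and in Bcl2 these are 82.4 and 106 CPM, whereas Bid is parted only by 30.1 against 29.8 CPM.

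Among the anti-apoptotic genes, Bcl2, the founding member of the family (ENSMUSG00000057329, chromosome 1, 106538178 to 106714274, minus strand, GRCm38), was measured at 82.2, 78.8, 82.4 and 54.7 CPM in BM-Treg replicates 1 to 4. In SP-Treg replicates 1 to 4 it was at 106, 135, 161 and 192 CPM. The lowest BM-Treg library was the one that shares its batch with the SP-Treg, and the SP-Treg libraries were spread more widely than the BM-Treg libraries. Bcl2 was downregulated in BM-Treg with a log2 fold change of -0.99 ± 0.18 (SE, n = 4 per tissue; 95% interval -1.40 to -0.59; edgeR adjusted p = 0.00682). The means were 74.5 ± 13.3 CPM for BM-Treg (SD, n = 4) and 149 ± 37.0 CPM for SP-Treg (SD, n = 4). Within batch 3, the log2 fold change was -1.41, and with batch as a term it was -1.44 (edgeR adjusted p = 0.0274). Both of these values rest on BM-Treg replicate 4, the only BM-Treg library of batch 3 and the lowest in Bcl2. Without each library in turn and without a batch term, the edgeR adjusted p was between 0.00141 and 0.0226. The call without a batch term thus rests on no single library.

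Bcl2a1b (ENSMUSG00000089929, chromosome 9, 89199209 to 89207827, plus strand) encodes a copy of A1, a short-lived protein that antigen receptor and NF-kB signals induce in lymphocytes. It was at 13.4, 24.2, 25.9 and 19.6 CPM in BM-Treg replicates 1 to 4 and at 56.8, 46.4, 38.2 and 62.3 CPM in SP-Treg replicates 1 to 4. Every SP-Treg library was thus above every BM-Treg library, and the BM-Treg library of batch 3 lay among those of batch 1. The log2 fold change was -1.29 ± 0.21 (SE, n = 4 per tissue; 95% interval -1.74 to -0.84; edgeR adjusted p = 0.00283). This was the smallest p among the 10 genes. Within batch 3 the log2 fold change was -1.35. With batch as a term it was -1.38 and did not pass (edgeR adjusted p = 0.0986). Without each library in turn, the adjusted p stayed between 0.00229 and 0.0150.

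Reads of Bcl2a1b are not all its own, since the mouse carries several near-identical copies of this gene on chromosome 9. The coding sequence of 519 bases differed from that of Bcl2a1d at 6 positions, counted from 1 at the A of the start codon: G4T, T48C, A94C, G312A, C381G and T490A, with the base of Bcl2a1b first. It differed from Bcl2a1a at 11 positions. The first 60 coding bases are shown to make this visible, with the differing bases in capitals.
Bcl2a1b, coding bases 1 to 60: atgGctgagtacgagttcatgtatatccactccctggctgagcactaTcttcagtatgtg
Bcl2a1d, coding bases 1 to 60: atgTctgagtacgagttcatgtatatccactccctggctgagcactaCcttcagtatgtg

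Of the 738 windows of 80 bases in the Bcl2a1b transcript, the length of a read, 41.1% occurred also in Bcl2a1d, so that the division of reads between these copies was estimated by the authors' counting. Bcl2a1d itself was lower in BM-Treg, at 7.45 ± 2.17 CPM (SD, n = 4) against 18.1 ± 4.84 CPM (SD, n = 4), with a log2 fold change of -1.27 ± 0.24 (SE; edgeR adjusted p = 0.00567, and 0.114 with batch as a term). Bcl2a1a and Bcl2a1c had at most 5 and 1 expected counts in any library and did not pass the filter. When the 4 copies were summed into 1 gene before the test, the log2 fold change came to -1.29 (edgeR adjusted p = 0.00463). The sum of Bcl2a1b and Bcl2a1d was between 18.1 and 35.2 CPM in BM-Treg and between 49.7 and 85.3 CPM in SP-Treg, without overlap. The difference was thus as large when reads were not divided among the copies.

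Mcl1, which encodes a labile protein needed by many lymphocytes (chromosome 3, 95658721 to 95663176, plus strand), was at 535, 613, 647 and 614 CPM in BM-Treg replicates 1 to 4. In SP-Treg replicates 1 to 4 it was at 774, 754, 576 and 559 CPM. The SP-Treg libraries lay on both sides of the BM-Treg libraries. The log2 fold change was -0.14, with a 95% interval of -0.41 to 0.12, and did not pass (edgeR adjusted p = 0.534). Bcl2l1, which encodes BCL-XL, was between 27.9 and 36.1 CPM in BM-Treg and between 17.1 and 29.5 CPM in SP-Treg. These ranges overlapped through BM-Treg replicate 4, at 27.9 CPM, and the log2 fold change of 0.34 did not pass (95% interval -0.01 to 0.68, edgeR adjusted p = 0.230).

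Of the 4 BH3-only genes, 0 passed the test (edgeR; Bid alone had an unadjusted p under 0.05). Bcl2l11 encodes BIM, the sensor of cytokine withdrawal (chromosome 2, 128126038 to 128162547, plus strand). It was at 87.2, 76.4, 67.5 and 60.4 CPM in BM-Treg replicates 1 to 4 and at 69.4, 71.8, 87.0 and 89.8 CPM in SP-Treg replicates 1 to 4. The groups overlapped almost fully, with a log2 fold change of -0.12 (95% interval -0.40 to 0.15, edgeR adjusted p = 0.616). On log2(FPKM + 1), the scale per length, its difference had the other sign (0.18), so that no direction is given for Bcl2l11. Bbc3 and Pmaip1 are p53 target genes. Bbc3 was between 5.10 and 8.33 CPM in BM-Treg and between 4.04 and 6.91 CPM in SP-Treg (log2 fold change 0.23, 95% interval -0.29 to 0.74, edgeR adjusted p = 0.621). Pmaip1 was between 15.0 and 21.2 CPM in BM-Treg and between 13.9 and 21.6 CPM in SP-Treg (log2 fold change 0.06, 95% interval -0.31 to 0.43, edgeR adjusted p = 0.881).

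Bid, which links death receptors to the mitochondrion once caspase-8 has cut it, lies on chromosome 6 (120891930 to 120916853, minus strand). It was at 30.1, 35.9, 34.8 and 39.4 CPM in BM-Treg replicates 1 to 4 and at 29.8, 21.9, 29.8 and 27.6 CPM in SP-Treg replicates 1 to 4. The groups did not overlap, but BM-Treg replicate 1 was within 1 CPM of the highest SP-Treg libraries. The log2 fold change was 0.36 ± 0.13 (SE, n = 4 per tissue; 95% interval 0.08 to 0.64; edgeR adjusted p = 0.111). An exact two-sided permutation test of its log2 CPM gave p = 0.0286, the smallest p that 4 against 4 libraries allow. This p is for a single gene and is shared by Bcl2 and Bcl2a1b, which overlapped as little. A gene whose log2 CPM do not overlap always gets this p, so that it adds nothing to the lack of overlap. CPM did not overlap in 16.2% of all genes tested.

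Of the effectors, Bax was between 12.2 and 22.0 CPM in BM-Treg and between 13.3 and 18.8 CPM in SP-Treg (log2 fold change 0.04, 95% interval -0.36 to 0.43, edgeR adjusted p = 0.929). Bak1 was at 76.3, 86.9, 109 and 95.7 CPM in BM-Treg replicates 1 to 4 and at 72.2, 81.6, 78.8 and 81.9 CPM in SP-Treg replicates 1 to 4. The tissues overlapped through BM-Treg replicate 1, and the log2 fold change of 0.23 did not pass (95% interval -0.02 to 0.47, edgeR adjusted p = 0.257). Intervals such as these leave room for differences of moderate size in the 8 genes that did not pass.

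**Figure D2:**
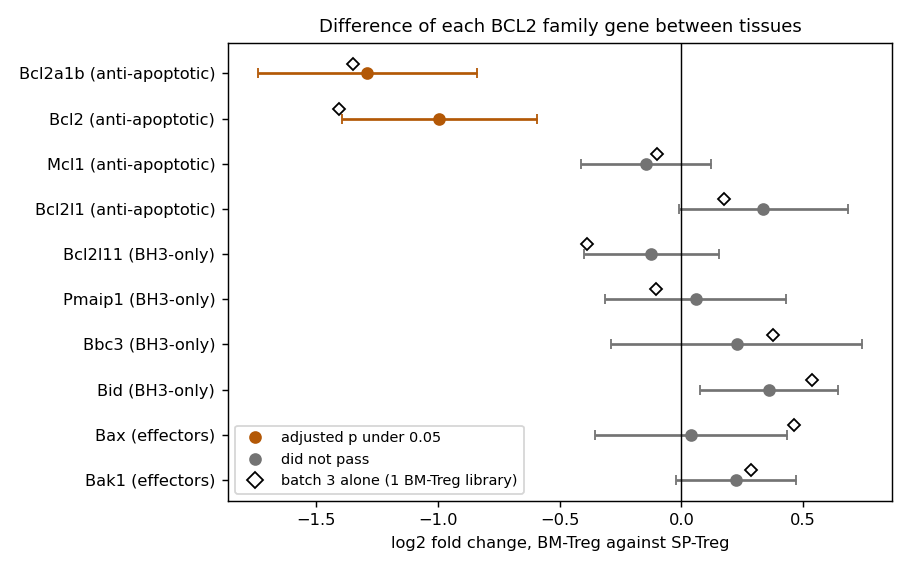
Log2 fold change of BM-Treg against SP-Treg (horizontal axis, negative is lower in BM-Treg) for each gene with its 95% interval from edgeR; filled orange points passed an adjusted p of 0.05, grey points did not, and open diamonds give batch 3 alone, which has 1 BM-Treg library and no test. Bcl2a1b at -1.29 and Bcl2 at -0.99 are the only called genes of the 10, and the diamond of Pmaip1, at -0.11, lies on the other side of 0 from its point at 0.06.

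To compare genes with each other, the deposited FPKM were used, which divide a gene's reads by transcript length and library depth. In both tissues Mcl1 was first, at 181 ± 15.4 FPKM in BM-Treg against 192 ± 42.5 FPKM in SP-Treg (SD, n = 4 each), and its lowest library was above the highest library of the next gene. Pmaip1 and Bbc3 were last in both, at 6.87 and 3.93 FPKM in BM-Treg and 6.36 and 3.19 FPKM in SP-Treg. In BM-Treg the order from the top was Mcl1, Bak1 (66.5), Bcl2a1b (28.6), Bcl2l11 (22.3), Bax (21.2), Bid (18.6), Bcl2l1 (14.4), Bcl2 (10.8), Pmaip1 and Bbc3, all as mean FPKM. The neighbours Bcl2a1b, Bcl2l11, Bax and Bid had overlapping ranges in turn, as had Bcl2l1, Bcl2 and Pmaip1. In SP-Treg it was Mcl1, Bcl2a1b (67.6), Bak1 (46.9), Bcl2 (20.2), Bcl2l11 (19.8), Bax (19.8), Bid (13.6), Bcl2l1 (11.96), Pmaip1 and Bbc3. There the ranges of neighbours from Bcl2 down to Pmaip1 overlapped in turn, and so did those of Bcl2a1b and Bak1.

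Bcl2 was thus in place 8 of 10 in BM-Treg and in place 4 in SP-Treg. Relative to Bcl2l11, whose product BCL2 restrains, Bcl2 FPKM stood at ratios of 0.45, 0.52, 0.58 and 0.38 in BM-Treg replicates 1 to 4. In SP-Treg replicates 1 to 4 the ratios were 0.95, 1.12, 0.88 and 1.16. The ranges did not overlap. On FPKM, BIM transcripts were above BCL2 transcripts in all 4 BM-Treg libraries and near parity in the spleen. The order depends on the scale. On CPM, which is not divided by length, Bcl2 was above Bcl2l11 in BM-Treg replicates 2 and 3 and in all 4 SP-Treg libraries. This ratio was chosen after the values had been seen, and it is given without a test. It rests largely on the difference in Bcl2. Bcl2l11 did not pass, but its mean FPKM, at 22.3 in BM-Treg against 19.8 in SP-Treg, adds to the difference in the ratio.

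Among the 4 anti-apoptotic genes, Mcl1 made up 75.6% to 79.6% of the summed FPKM in BM-Treg and 56.9% to 71.3% in SP-Treg. Bcl2a1b took 8.90% to 13.9% in BM-Treg and 19.8% to 29.2% in SP-Treg, without overlap. The share of Bcl2 overlapped, at 3.40% to 5.71% against 4.50% to 9.39%. Summed FPKM of the 4 genes was 235 ± 24.4 in BM-Treg against 292 ± 47.1 in SP-Treg (SD, n = 4 each), and its ranges overlapped. The larger share of Mcl1 in BM-Treg restates the lower Bcl2a1b and Bcl2, since Mcl1 itself was at 181 against 192 FPKM. Bcl2a1d, at 10.6 FPKM in BM-Treg and 24.7 FPKM in SP-Treg, is not part of these sums.

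**Figure D3:**
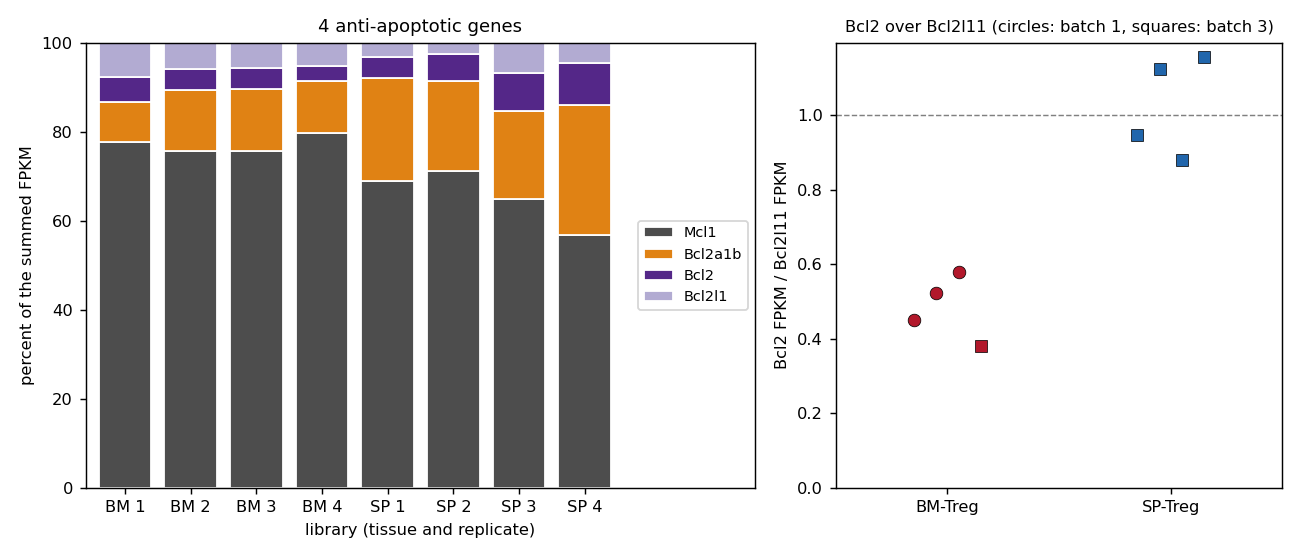
Left, percent of the summed FPKM of 4 anti-apoptotic genes taken by each (vertical axis) in every library; right, Bcl2 FPKM divided by Bcl2l11 FPKM per library (circles batch 1, squares batch 3, dashed line at parity). Mcl1 fills at least 75.6% of each BM-Treg bar and at most 71.3% of each SP-Treg bar, and the 4 BM-Treg ratios, at most 0.58, lie under the SP-Treg ratios, at least 0.88.

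Transcripts within a gene were compared by their percent of the gene's expected counts. Bcl2, Mcl1, Pmaip1, Bax and Bcl2a1b each had all counts on 1 transcript, and Bbc3-201 held at least 95.1% of Bbc3. In the other 4 genes, 10 transcripts had a mean share of at least 5%. By exact two-sided permutation tests, no difference in their shares between tissues was found. The smallest exact p was 0.171 and the smallest adjusted p over the 10 transcripts 0.571, with 0 transcripts under 0.05 before adjustment. The smallest p that 4 against 4 libraries allow is 0.0286, so that a single transcript could not pass after adjustment. The leading transcript of Bcl2l11, ENSMUST00000110341, held at least 81.8% of it. Bcl2l1-201, annotated as protein coding, led Bcl2l1 with 58.0% to 85.0%. Bid was split between Bid-201, which is protein coding, at 55.9% ± 5.11 in BM-Treg against 47.7% ± 14.2 in SP-Treg (SD, n = 4 each), and Bid-204, which GENCODE annotates for nonsense-mediated decay. Bid-204 held 70.3% of Bid in SP-Treg replicate 3 and 35.4% to 49.2% in the other 7 libraries. These shares are estimates, since the transcripts of a gene overlap and reads have 80 bases.

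Some Bak1 transcripts differed in share between the batches. Bak1-201, which GENCODE annotates for nonsense-mediated decay, held 52.9%, 53.1% and 53.4% of Bak1 in BM-Treg replicates 1 to 3 (batch 1). It held 73.2% in BM-Treg replicate 4 and 61.4% to 71.5% in SP-Treg (batch 3). A further transcript, ENSMUST00000133448, took 8.55% to 14.9% in batch 1 and 1.88% to 6.30% in batch 3. The share of the protein-coding Bak1-202 overlapped between the batches, at 32.1% to 38.1% in batch 1 and 22.2% to 35.4% in batch 3. In the same way Bak1 FPKM was between 67.8 and 78.6 in batch 1, at 50.6 in BM-Treg replicate 4 and between 45.1 and 48.9 in SP-Treg, whereas Bak1 CPM of BM-Treg replicate 4, at 95.7, lay within batch 1. Bak1 FPKM hence moved together with the share of Bak1-201 and the batch. Batch 3 holds a single BM-Treg library, and the part of batch or tissue in these shares was not tested.

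**Figure D4:**
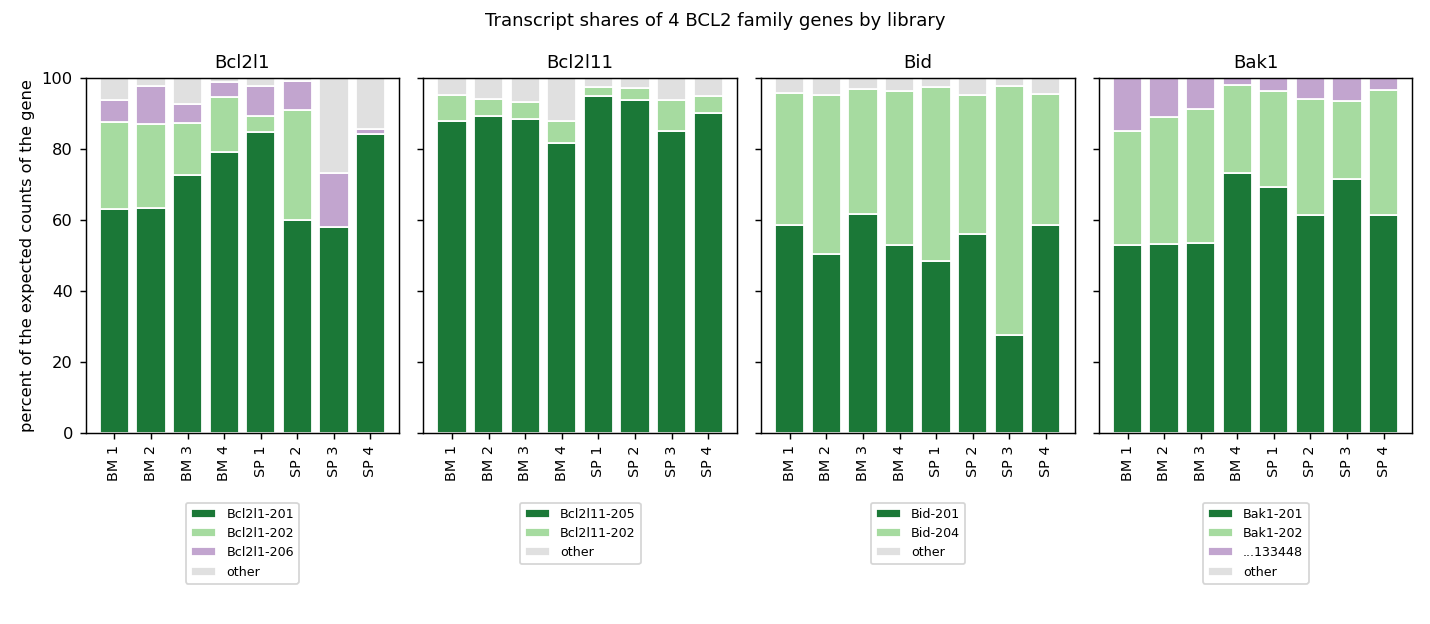
Percent of the expected counts of a gene (vertical axis) on its transcripts in each library, for the 4 genes with at least 2 transcripts of a mean share of 5% or more; grey is the sum of all others. Bak1-201 is at 52.9% to 53.4% in BM 1 to BM 3 and at 61.4% or more in the other 5 libraries, and Bid-204 reaches 70.3% in SP 3.

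The pattern of Bcl2a1b over the 8 libraries was most like that of Bcl2a1d, Sept7 and Inpp5a among all genes tested. Pearson's r of log2 CPM was 0.988 for Bcl2a1d, 0.986 for Sept7 and 0.986 for Inpp5a. Bcl2a1d shares reads with it. Sept7 encodes a septin of the cytoskeleton and is listed in the tables under a symbol turned into a date, and Inpp5a encodes an inositol phosphatase. These 8 points share the tissue difference, and the correlations are given as a description.

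Genes around the family were described from lists that had been drawn up by role. Of the 10 other BCL2 family genes that passed the filter (16 listed), 2 were lower in BM-Treg, namely Bcl2a1d and Bcl2l13, and 0 were higher. Bcl2l13, a mitochondrial protein with a part in mitophagy, was between 45.8 and 56.6 CPM in BM-Treg and between 66.2 and 77.2 CPM in SP-Treg (log2 fold change -0.47 ± 0.11, edgeR adjusted p = 0.0155). With batch as a term its adjusted p was 0.0721, and on log2(FPKM + 1) with limma-trend it was 0.178. Bnip3l, a mitophagy receptor and the most abundant of this list per length, was at 83.9 FPKM in BM-Treg and 67.7 FPKM in SP-Treg and did not pass (log2 fold change 0.06, edgeR adjusted p = 0.756).

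Of 9 apoptosome and caspase genes, 1 was lower in BM-Treg, 0 were higher and 8 did not pass. Cycs, which encodes cytochrome c, was between 19.2 and 26.4 CPM in BM-Treg and between 32.7 and 44.3 CPM in SP-Treg (log2 fold change -0.62 ± 0.14, edgeR adjusted p = 0.0143). The adjusted p of Cycs was 0.0544 without BM-Treg replicate 1 and 0.289 with batch as a term. Of the 5 caspase inhibitors, 0 passed by edgeR in either direction; 1 had an unadjusted p under 0.05, and the most abundant per length, Birc3, was at 90.8 FPKM in BM-Treg and 85.1 FPKM in SP-Treg (log2 fold change -0.08, edgeR adjusted p = 0.657).

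Of the 10 genes of the death receptor pathway, 2 were lower in BM-Treg, 0 were higher and 8 did not pass. Tnf, the cytokine that engages TNF receptors, was between 9.91 and 15.1 CPM in BM-Treg and between 20.6 and 28.7 CPM in SP-Treg (log2 fold change -1.14 ± 0.17, edgeR adjusted p = 0.00108, and 0.107 with batch as a term). Cflar encodes c-FLIP, which blocks caspase-8 at the receptor. It was between 174 and 225 CPM in BM-Treg and between 247 and 340 CPM in SP-Treg (log2 fold change -0.56 ± 0.12, edgeR adjusted p = 0.0104). With batch as a term the adjusted p of Cflar was 0.0798, and on log2(FPKM + 1) its log2 difference was -0.16 (limma-trend adjusted p = 0.588).

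The list drawn up for regulators of transcription or turnover of the family held 16 genes, of which 1 was higher and 3 were lower in BM-Treg. Whether each of them acts on the family in these cells was not tested. Zfp36l2, an RNA-binding protein that speeds the decay of transcripts with AU-rich elements, was at 390 ± 34.7 CPM for BM-Treg (SD, n = 4) and 151 ± 11.9 CPM for SP-Treg (SD, n = 4). The difference of 1.37 ± 0.10 on the log2 scale passed (edgeR adjusted p = 4.94e-06, and 0.00186 with batch as a term). Myc was at 46.3, 40.3, 53.0 and 44.4 CPM in BM-Treg replicates 1 to 4 and at 56.5, 69.1, 136 and 118 CPM in SP-Treg replicates 1 to 4 (log2 fold change -1.04 ± 0.26, edgeR adjusted p = 0.0413). The call of Myc passed only without SP-Treg replicate 1 or 2, and was lost without any other single library, with adjusted p up to 0.119 (without BM-Treg replicate 1), and with batch as a term its adjusted p was 0.284. Nfkb1, an NF-kB subunit, was lower by a log2 fold change of -0.33 ± 0.10 (edgeR adjusted p = 0.0454). That call passed only without SP-Treg replicate 3, and was lost without any other single library, with adjusted p up to 0.137 (without BM-Treg replicate 2), and with batch as a term it was 0.310. Dnaja1, an HSP40 co-chaperone and the most abundant of the list per length, had a log2 fold change of -1.01 ± 0.26 (edgeR adjusted p = 0.0440), but the tissues overlapped, with 580 CPM in BM-Treg replicate 4 against 575 CPM in SP-Treg replicate 4. It was lost without BM-Treg replicate 1, 2 or 3 or SP-Treg replicate 1 or 2, with adjusted p up to 0.129 (without BM-Treg replicate 1), and with batch as a term Dnaja1 stood at -0.67 on the log2 scale (edgeR adjusted p = 0.432). Trp53, Foxo1, Foxo3, Stat5a, Stat5b and Rela, named after their values had been seen as factors known to act on members of the family, were among the 12 that did not pass, with log2 fold changes between -0.18 (Trp53) and 0.30 (Foxo3).

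Early-response genes, which dissociation and sorting can induce within minutes, were described because they move with the handling of cells. Of 9, 3 were higher in BM-Treg and 1 was lower. Fosb (log2 fold change 2.54 ± 0.58, edgeR adjusted p = 0.0452), Junb (1.31 ± 0.27, edgeR adjusted p = 0.0216) and Dusp1 (1.38 ± 0.29, edgeR adjusted p = 0.0236) were higher. Egr1 was lower, at 81.4 ± 22.2 CPM (SD, n = 4) against 165 ± 19.8 CPM (SD, n = 4), with a log2 fold change of -1.02 ± 0.17 (edgeR adjusted p = 0.00343). With batch as a term, 0 of these 4 genes passed (edgeR adjusted p = 0.105 for Fosb, 0.168 for Junb, 0.125 for Dusp1 and 0.172 for Egr1), and the log2 fold change of Egr1 was -0.59. Dusp1 was the most abundant of them per length, at 376 FPKM in BM-Treg and 149 FPKM in SP-Treg. Without single libraries, Fosb was lost in 6 of 8 fits, the exceptions being those without SP-Treg replicate 1 or 3 (highest adjusted p 0.102, without SP-Treg replicate 2). Junb was lost without BM-Treg replicate 4 (0.0516) or SP-Treg replicate 3 (0.0551), and Dusp1 without BM-Treg replicate 3 or 4 or SP-Treg replicate 2 or 4 (highest 0.0656, without SP-Treg replicate 2). The part of cell handling in the levels of the BCL2 family was not tested.

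**Figure D5:**
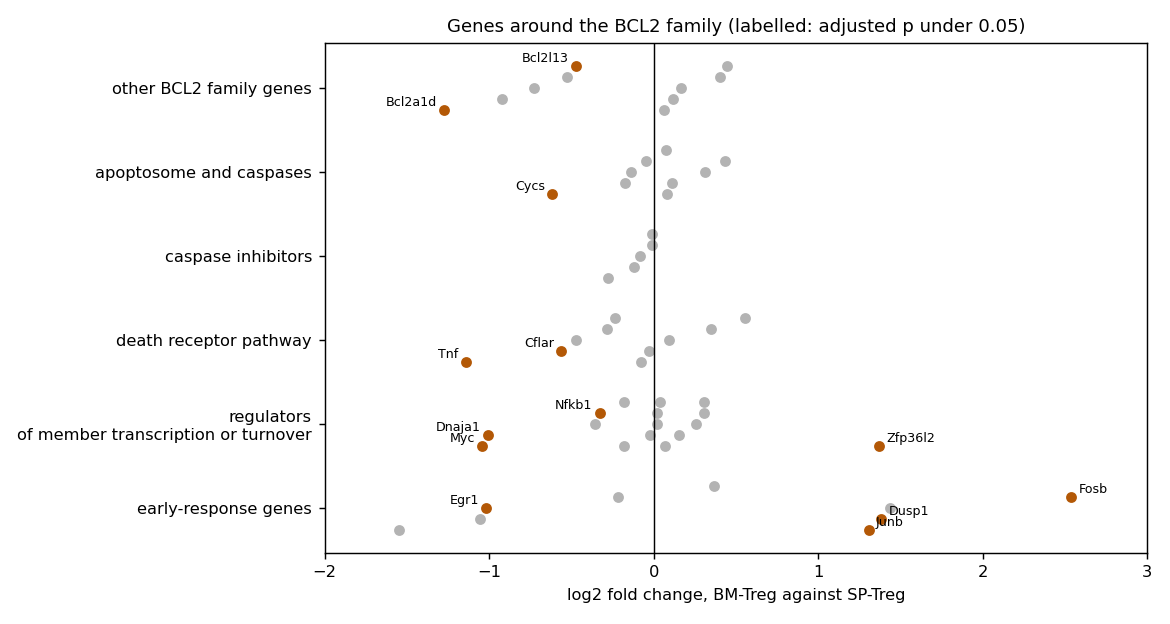
Log2 fold change of BM-Treg against SP-Treg (horizontal axis) for the tested genes of 6 lists around the BCL2 family, one row per list, with vertical scatter for legibility only; orange and named genes passed an adjusted p of 0.05 (edgeR). Cycs lies at -0.62, Zfp36l2 stands at 1.37, and the caspase inhibitors have no named gene.

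Marker RNA of other blood cells was low against that of Treg markers but uneven between SP-Treg libraries. Summed CPM of 8 erythroid markers was 16.9 to 35.3 in BM-Treg and 2.59, 196, 487 and 309 in SP-Treg replicates 1 to 4. That of 5 B cell markers was 10.8 to 14.0 in BM-Treg and 6.33, 95.4, 20.0 and 15.6 in SP-Treg replicates 1 to 4. Neutrophil markers summed to 1.58 to 11.1 CPM in BM-Treg and 0.432 to 20.0 CPM in SP-Treg, and monocyte and macrophage markers to 13.5 to 19.1 and 7.12 to 27.9 CPM. Of these 4 lists, 0 genes passed the test, but not all were expressed enough to be tested. Tested were 7 of 8 erythroid, 4 of 5 B cell, 2 of 11 neutrophil and 3 of 5 monocyte and macrophage markers. The erythroid sum was above the level of Bcl2 in SP-Treg replicates 2 to 4 (135, 161 and 192 CPM of Bcl2). It was below that level in SP-Treg replicate 1 and in BM-Treg. SP-Treg replicate 1 was the lowest of the 8 libraries in all 4 sums, with Pax5 at 0, and had 106 CPM of Bcl2 and 56.8 CPM of Bcl2a1b. SP-Treg replicate 2, the highest in B cell markers, had 135 CPM of Bcl2 and 46.4 CPM of Bcl2a1b. The part of such RNA in the differences of Bcl2 and Bcl2a1b was not tested. Plasma cell markers summed to 290 to 417 and 295 to 431 CPM, nearly all of it Prdm1, which Treg express themselves. Only 1 of them was tested, and it did not pass. Plasmacytoid dendritic cell markers summed to 24.7 to 36.6 CPM in BM-Treg and 38.1 to 64.5 CPM in SP-Treg, most of it Pacsin1, which was lower in BM-Treg (log2 fold change -0.55, edgeR adjusted p = 0.0415), with Siglech at most 0.822 CPM. Pacsin1 passed only without BM-Treg replicate 3 or SP-Treg replicate 3, was lost without any other single library (adjusted p up to 0.124, without BM-Treg replicate 1), and had an adjusted p of 0.128 with batch as a term. CD8 T and NK cell markers summed to 10.9 to 12.6 CPM in BM-Treg and 13.9 to 43.0 CPM in SP-Treg, with Cd8a lower in BM-Treg (log2 fold change -2.99, edgeR adjusted p = 0.0293) and Ncr1 at 0 in the 4 BM-Treg libraries and in SP-Treg replicate 1. Cd8a was at 0.836 to 1.72 CPM in BM-Treg and at 1.80, 21.1, 6.62 and 6.03 CPM in SP-Treg replicates 1 to 4. Without SP-Treg replicate 2 its log2 fold change was -2.12 (edgeR adjusted p = 0.0142). It was lost without any single BM-Treg library (adjusted p up to 0.102) and with batch as a term (0.270). Both sums moved in the direction of Bcl2 and Bcl2a1b, and their part in these differences was not tested.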

How the data were processed

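RNA of sorted FoxP3+ cells was amplified with single primer isothermal amplification (NuGEN) and sequenced as single reads of 80 bases. The submitters' processing notes name cutadapt 1.9, STAR 2.5.2a, RSEM 1.2.30 and the genome build GRCm38, and the annotation is not given in the sources used here. The authors deposited RSEM expected counts and FPKM per gene and per transcript for each library. These estimates divide reads that fit several genes or transcripts, and FPKM depends on the estimated transcript mix. Depth was 12427136 to 21921252 expected counts per library, and a gene such as Bbc3 at about 6 CPM thus rests on few reads.

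Expected counts were rounded to whole numbers, filtered with filterByExpr, scaled with TMM and tested with edgeR 4.0.16 (robust quasi-likelihood, R 4.3.3) over the 4 BM-Treg and 4 SP-Treg libraries. P-values were adjusted over all genes tested by the Benjamini-Hochberg method, with a threshold of 0.05. CPM used TMM library sizes, and log2 CPM a prior count of 2. Alternatives used DESeq2 1.42.0 and limma 3.58.1, on FPKM with a pseudocount of 1 or 0.1. The edgeR step was tested on simulated data. Transcript shares were compared with exact permutation tests. Gene positions are as the authors deposited them, and all 10 overlapped the position of the gene in GENCODE M21. Promoter windows were taken from RefSeq on GRCm38.

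Named with values were all 10 BCL2 family genes, each gene of the pathway lists past the threshold, the most abundant gene of each list by FPKM, and the 3 genes most like the family gene with the smallest adjusted p. The genes and lists were chosen with earlier results of these data known. The list of apoptosome and caspase genes leaves out 2 genes, which are not reported here.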

Additional observations from a re-analysis of the deposited data

Results flagged for a closer look

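In 3 of the 70 groups of 4 libraries examined (gene levels and transcript shares), 1 library lay apart from the other 3 by Dixon's criterion at 95%. About 1 group in 20 is set apart in this way by chance, so that this number is within what chance gives. Bcl2 in BM-Treg replicate 4 was at 54.7 CPM, against 78.8 to 82.4 CPM in BM-Treg replicates 1 to 3. This library is the only BM-Treg library of batch 3, and without it Bcl2 was still lower in BM-Treg than in SP-Treg. The transcript Bak1-201 (ENSMUST00000025034) held 73.2% of Bak1 in BM-Treg replicate 4 and 52.9% to 53.4% in BM-Treg replicates 1 to 3. The transcript Bcl2l1-202 (ENSMUST00000109820) held 31.1% of Bcl2l1 in SP-Treg replicate 2 and 0% to 4.54% in the other SP-Treg libraries, whereas it was between 14.7% and 24.6% in BM-Treg. No cause of these values was tested.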

How the results depend on the processing

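Of 201 tested values of the 10 BCL2 family genes under alternatives, 200 kept their side of the threshold, and 0 called values changed sign. Most of these values are of the 8 genes that did not pass. All settings draw on the same 8 libraries, so that this count is a weak check. With batch as a term 1 of the 10 genes was called in place of 2, since Bcl2a1b did not pass, and 258 genes in all (111 higher, 147 lower); in that fit the difference between tissues rests on 1 BM-Treg library. In batch 3 alone, which has no test, the log2 fold change of Pmaip1 was -0.11. Over all genes, 765 were called on log2(FPKM + 1) (482 higher, 283 lower), 728 on log2(FPKM + 0.1) (454 higher, 274 lower) and 427 at an adjusted p of 0.01. Without single libraries 690 (without BM-Treg replicate 2) to 1048 (without SP-Treg replicate 3) genes were called, and Bcl2 and Bcl2a1b were called in each of these 8 fits. The direction of Bcl2l11, Pmaip1 and Bax, which did not pass, changed in 2, 4 and 3 alternatives. With libraries thinned to the smallest total, an alternative chosen after seeing the data, 1138 genes were called, Bcl2 and Bcl2a1b among them. With DESeq2 1703 genes were called. Of the transcript shares, 0 passed after adjustment in any alternative (unadjusted exact p under 0.05 for 2 transcripts without BM-Treg replicate 4 and for 1 without SP-Treg replicate 2). With so few libraries a single transcript could not pass after adjustment, whatever its shares, so that this count shows little. Replicates 1 to 3 are female in BM-Treg and male in SP-Treg, so that the same number there cannot mean the same mouse. For replicate 4 the labels do not say. Deviations of same-numbered libraries from the means of their tissues had correlations of -0.11, 0.06, -0.18 and 0.04, which cannot settle a pairing. With the replicate block, which assumes such pairs, 948 genes were called, Bcl2 (adjusted p = 0.0415 by edgeR) and Bcl2a1b among them. Batch and sex cannot be told apart, and Bbc3, the gene with the lowest CPM, had the widest interval.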

Other observations

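In some genes around the family the CPM of the tissues did not overlap although the test was not passed, and they are named here after their values were seen. Fas, the death receptor of activated T cells, had a log2 fold change of -0.47 (edgeR adjusted p = 0.0959), and Tnfrsf1a, the TNF receptor that can signal death, one of 0.55 (edgeR adjusted p = 0.0686). Bcl2l15, a little-studied relative of the family, had one of -0.92 (edgeR adjusted p = 0.109), and Usp9x, a deubiquitinase known to stabilise MCL1, one of -0.36 (edgeR adjusted p = 0.0938). Fos, of the early-response genes, had a log2 fold change of 1.43 (edgeR adjusted p = 0.0712). CPM did not overlap in 16.2% of all genes tested. The tissues were barely parted in Usp9x (406.02 CPM in BM-Treg replicate 1, 406.09 CPM in SP-Treg replicate 4) and in Bcl2l15 (3.48 CPM in BM-Treg replicate 2, 3.51 CPM in SP-Treg replicate 2). On FPKM the libraries of Fas, Bcl2l15, Usp9x and Tnfrsf1a overlapped. Those of Fos did not, at 22.2 to 45.5 FPKM in BM-Treg and 6.77 to 16.2 FPKM in SP-Treg.

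Within the spleen, the libraries differed in the balance of Mcl1 and Bcl2. Mcl1 FPKM over Bcl2 FPKM was 15.3, 11.6, 7.45 and 6.06 in SP-Treg replicates 1 to 4, and 13.6, 16.2, 16.4 and 23.4 in BM-Treg replicates 1 to 4. The SP-Treg libraries with more Bcl2 also had more RNA of Il2ra, the alpha chain of the IL-2 receptor. Il2ra was at 849, 944, 1434 and 1676 CPM in SP-Treg replicates 1 to 4. It is 1 of the 9 Treg markers and was named after its values had been seen. No other of these markers rose in this order, and Ikzf2 fell. In BM-Treg, replicate 4 had the lowest Bcl2 and the highest Il2ra (940 CPM, against 737 to 763 CPM in replicates 1 to 3). With 4 libraries a tissue no relation between these genes was tested.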
